A study of Canis lupus familiaris with 9 samples.

Results

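DNA replication machinery is the set of proteins that copies the genome once per cell cycle. A list of 49 of its genes was looked up by gene symbol in the 9 libraries. Each of 45 was found once among the 28008 features of every library, and GINS1, PRIM1, POLE2 and E2F1 were not analysed here. The study set CD4+ peripheral T-cell lymphoma (PTCL) of dogs, a cancer of mature T cells, against sorted normal CD4+ lymphocytes. The 3 control libraries came from healthy hounds, all female, 1 year old and not neutered. The 3 Boxer lymphomas came from a castrated male of 6 years (Boxer 1), a spayed female of 8 years (Boxer 2) and a castrated male of 6 years (Boxer 3). Other-breed lymphoma 1 came from a spayed female Cavalier King Charles Spaniel of 3 years, lymphoma 2 from a spayed female Rhodesian Ridgeback of 4 years, and lymphoma 3 from a castrated male Collie of 11 years. No agent or allele is named for any group. Breed, age and neutering therefore differed between all controls and all lymphomas, and their part cannot be told apart from that of disease. Sorting is stated for the control cells, while neither tissue nor sorting is stated for the lymphomas. Separate dogs are not stated for samples with the same details, so p-values measure only the spread between these samples, which may be technical.

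Replication starts in G1, when the origin recognition complex (ORC), CDC6 and CDT1 load the ring-shaped MCM2-7 helicase onto DNA, a step called licensing. In S phase the kinase CDC7, with its partner DBF4, and the factors CDC45 and GINS turn the loaded ring into an active helicase. Polymerases then copy both strands while the clamp PCNA holds them on the template, and chromatin assembly factors place histones on the new DNA. Resting T cells lie outside the cycle and cycling T cells within it, and many of these genes are transcribed around the G1 to S transition.

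Values are normalised read counts, which are read counts divided by 1 factor per library, and are listed for replicates 1, 2 and 3 in that order. Fold changes are log2 differences of (value + 1) with their standard error (SE) from limma, and adjusted p-values are Benjamini-Hochberg values over all genes tested, with 0.05 as the threshold. Levels are compared between libraries for 1 gene and not between genes, since transcript lengths were not used. The libraries held 11710623 to 18488468 reads. On the first principal component of all tested genes (51.3% of the variance), controls lay between -154 and -136 and lymphomas between 23.0 and 110. Other-breed lymphomas 1 and 2 stood apart on the second component (14.2%), at 120 and 78.2 against -58.8 to -11.3 for the other libraries. The summed level of 12 T cell markers was 103437 to 106633 in the controls and 64815 to 113324 in the lymphomas, and CD4 itself was not among these markers.

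The replication genes were higher in lymphoma at most steps, with the largest fold changes in the loading factors CDC6 and ORC1, in the helicase activator CDC45, in CLSPN and in MCM5. Of the 45 genes, 29 rose in lymphoma, 1 fell and 15 did not pass the threshold. The share that rose was 64.4%, against 19.4% of all 15977 genes tested. The only one that fell was ORC4, against 15.7% of all genes tested. The median log2 fold change of the 45 genes was 1.08, and that of all genes tested was 0.05. The same 29 genes lay above every control in every lymphoma, a pattern held by 18.5% of all genes tested. ORC4 and ORC5 lay below every control in every lymphoma, as 17.2% of all genes did. Together the 45 genes took 0.186%, 0.188% and 0.195% of the reads of the controls. They took 0.467%, 0.536% and 0.505% in the Boxer lymphomas and 0.464%, 0.379% and 0.363% in the other-breed lymphomas. In bulk RNA a larger share of cells in the cycle and more RNA per cell cannot be told apart.

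Of the 30 calls, 22 passed the threshold under all 22 alternative settings tried. With age in years as a covariate, 8 calls missed it: GINS2, PCNA, POLA1, PRIM2, POLE, FEN1, RPA2 and CHAF1B. Since all controls were 1 year old, the age slope rests on the lymphoma dogs of 3 to 11 years.

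**Figure D1:**
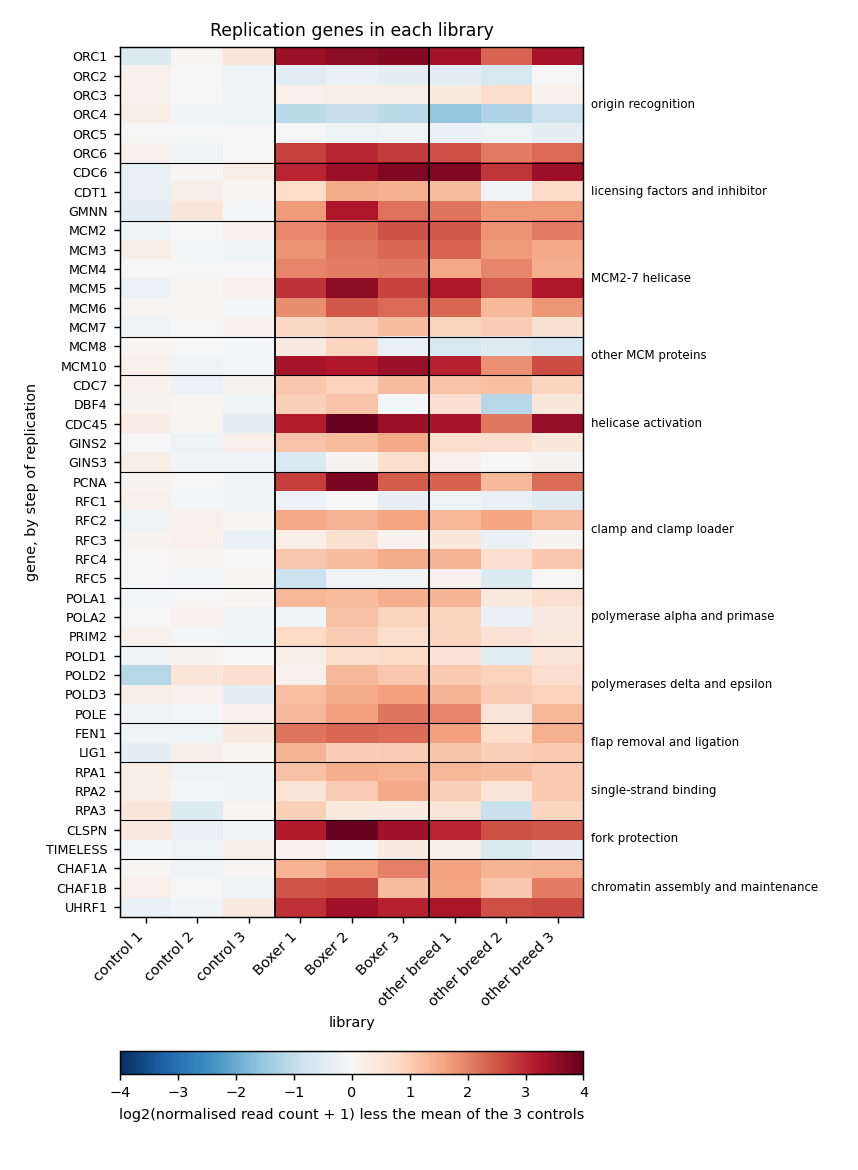
Level of each of the 45 replication genes (rows, by step of replication) in each of the 9 libraries (columns), as log2(normalised read count + 1) less the mean of the 3 controls. Red is above the control mean and blue below. The MCM2-7 rows are red in all 6 lymphomas, while within the origin recognition rows ORC1 and ORC6 are red, ORC4 is blue and ORC2, ORC3 and ORC5 are pale.

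The origin recognition complex marks the sites where replication can begin, and its subunits did not move together. Its subunit genes ORC1 and ORC6 rose, ORC4 fell, and ORC2, ORC3 and ORC5 did not pass the threshold. ORC1, the ATPase subunit whose protein is present in only part of the cell cycle in mammals, had 35.5, 53.7 and 73.2 in the controls. It had 582, 635 and 668 in the Boxer lymphomas and 531, 264 and 517 in the other-breed lymphomas. The groups did not overlap, and other-breed lymphoma 2 was the lowest of the lymphomas. Mean ORC1 was 54.1 ± 18.8 (SD, n = 3) in controls and 533 ± 144 (SD, n = 6) in lymphomas, 9.85 times the control mean (log2 fold change 3.28 ± 0.33, adjusted p = 1.18e-04). ORC6, the smallest and least conserved subunit, had 91.4, 71.8 and 79.6 in controls, 542, 663 and 568 in Boxer lymphomas and 484, 343 and 394 in other-breed lymphomas. Every lymphoma was above every control (log2 fold change 2.58 ± 0.24, adjusted p = 8.22e-05).

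ORC4, another ATPase-fold subunit of the same complex, had 2817, 2174 and 2059.6 in the controls, the highest level of the 9 libraries lying in control 1. Its values were 1098, 1231 and 1101 in the Boxer lymphomas and 800.4, 979 and 1279 in the other-breed lymphomas. Every lymphoma was below every control, and the log2 fold change was -1.12 ± 0.18 with an adjusted p of 0.0014. The fall passed the threshold in both breed groups, at -1.03 ± 0.17 for Boxer lymphoma (adjusted p = 0.00353) and -1.22 ± 0.22 for other-breed lymphoma (adjusted p = 0.00759). ORC2 had 1174, 1043 and 901 in controls and 769.7, 863, 781 (Boxer) and 766, 668, 1049.7 (other-breed) in lymphomas (log2 fold change -0.35 ± 0.17, adjusted p = 0.129), and the groups overlapped. ORC3 had 782, 708 and 650.1 in controls and 818, 857, 838 (Boxer) and 928, 1154, 779 (other-breed) in lymphomas, with a log2 fold change of 0.32 ± 0.16 and an adjusted p of 0.145. The ORC5 level lay between 680 and 698 in the controls and between 538 and 676 in the lymphomas, which did not overlap, although the adjusted p was 0.29 (log2 fold change -0.20 ± 0.14).

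**Figure D2:**
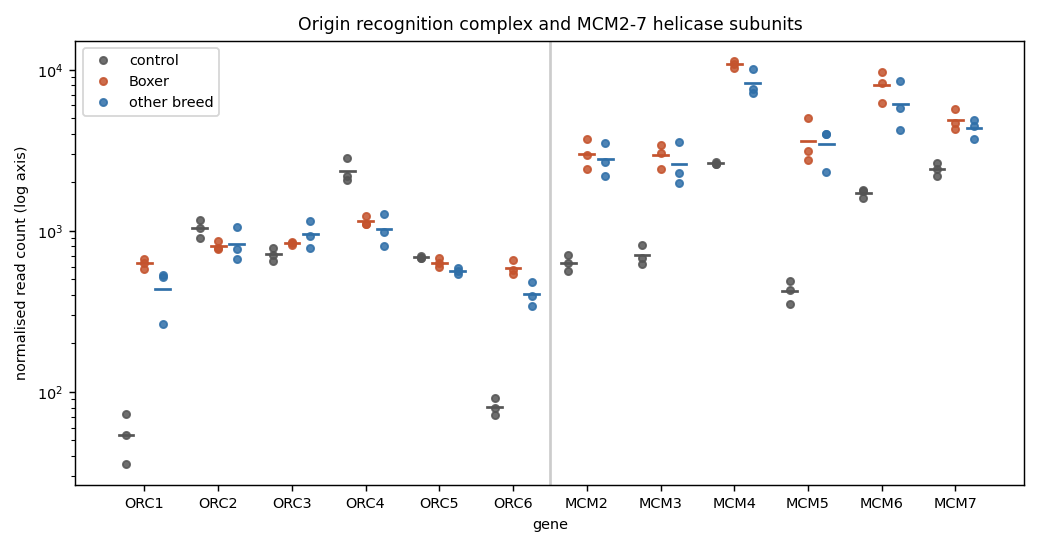
Normalised read count of the 6 origin recognition complex genes (left) and the 6 MCM2-7 genes (right) on a log axis. Points are the 3 libraries of each group and short lines are group means. Among the ORC genes the lymphoma points lie above the controls for ORC1 and ORC6 and below them for ORC4 and ORC5, while for each MCM gene every lymphoma lies above every control.

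CDC6 and CDT1 bring the helicase to ORC, and geminin (GMNN) binds CDT1 and blocks a further round of loading. CDC6 and GMNN rose in lymphoma and CDT1 did not pass the threshold over all 6 lymphomas. CDC6 had 49.1, 62.7 and 71.3 in controls, 504, 663 and 806 in Boxer lymphomas and 805, 446 and 656 in other-breed lymphomas. Its lowest lymphoma, other-breed 2, was still above every control, and the mean was 10.6 times that of the controls (log2 fold change 3.37 ± 0.25, adjusted p = 2.55e-05). GMNN had 109, 206 and 136 in controls, 473, 1381 and 652 in Boxer lymphomas and 649.7, 486 and 486 in other-breed lymphomas, with Boxer 2 far above the other lymphomas. Its log2 fold change was 2.12 ± 0.35 (adjusted p = 0.00166). CDT1 had 300.3, 432 and 389.9 in controls, 611, 1033 and 999.6 in Boxer lymphomas and 899, 326 and 628 in other-breed lymphomas. Other-breed lymphoma 2 lay within the range of the controls, and the adjusted p was 0.0611 (log2 fold change 0.92 ± 0.34). CDT1 rose in Boxer lymphoma (log2 fold change 1.21 ± 0.27, adjusted p = 0.00961) and did not pass in other-breed lymphoma (0.62 ± 0.37, adjusted p = 0.245). Without other-breed lymphoma 2 the other-breed value was 1.02 and passed (adjusted p = 0.0247, range over its alternatives 0.0247 to 0.546). Over all lymphomas CDT1 passed without that library (1.14, adjusted p = 0.006), without other-breed lymphomas 1 and 2 (1.10, adjusted p = 0.00972) and with DESeq2 (0.997, adjusted p = 0.0181), and over its alternatives the adjusted p ran from 0.006 to 0.419. The difference between the breed groups did not pass (0.59 ± 0.41, adjusted p = 0.881).

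All 6 genes of the MCM2-7 ring, the motor of the replicative helicase, rose in lymphoma and in each breed group. For each of the 6, the lowest lymphoma was above the highest control. MCM5 had the largest change of the ring, from 354, 430.1 and 488 in controls to 3109, 4991 and 2752 in Boxer and 4003, 2324 and 3981 in other-breed lymphomas (log2 fold change 3.02 ± 0.24, adjusted p = 3.42e-05). MCM7 had the smallest, from 2187, 2426 and 2632 in controls to 4256, 4662 and 5714 in Boxer and 4472, 4896 and 3709 in other-breed lymphomas (0.93 ± 0.15, adjusted p = 0.00167). The RNA log2 fold changes of the genes of the ring ran from 0.93 to 3.02. The ring holds 1 copy of each subunit protein, and protein amounts were not measured here.

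MCM2 had 561, 629.9 and 703 in controls and 2404, 2939.8, 3709.8 (Boxer) and 3526, 2198, 2671 (other-breed) in lymphomas (2.18 ± 0.19, adjusted p = 5.58e-05). MCM3 was 822, 675 and 619 in controls and 2426, 3028, 3415 (Boxer) and 3536, 2279, 1987 (other-breed) in lymphomas (1.95 ± 0.21, adjusted p = 1.55e-04). In both of these genes Boxer lymphoma 3 and other-breed lymphoma 1 were the highest libraries. MCM4 had 2595, 2667 and 2595 in controls and 10217, 10826, 11344 (Boxer) and 7568, 10054, 7220.3 (other-breed) in lymphomas (log2 fold change 1.84 ± 0.18, adjusted p = 8.46e-05). MCM6 had 1758, 1780.0 and 1606 in controls and 6174, 9614, 8284 (Boxer) and 8462, 4214, 5821 (other-breed) in lymphomas (1.996 ± 0.24, adjusted p = 3.19e-04), with its lowest lymphoma level in other-breed 2.

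MCM8 and MCM10 carry the MCM name but are not part of the ring. MCM10, which helps to activate the loaded helicase, rose, from 90.1, 71.8 and 77.8 in controls to 787, 744 and 881 in Boxer and 677, 287 and 490.3 in other-breed lymphomas (log2 fold change 2.91 ± 0.34, adjusted p = 2.29e-04). MCM8, which works with MCM9 in recombination repair, did not pass over all lymphomas (-0.15 ± 0.33, adjusted p = 0.742). Its values were 939, 874 and 858 in controls, 1153, 1601 and 729 in Boxer lymphomas and 569.7, 619 and 561 in other-breed lymphomas. The other-breed lymphomas lay below every control, while Boxer lymphomas 1 and 2 lay above every control and Boxer 3 below. MCM8 fell in other-breed lymphoma (log2 fold change -0.61 ± 0.15, adjusted p = 0.0211). That call was lost when control 1, 2 or 3 was left out, with adjusted p-values of 0.0699, 0.101 and 0.0755, and over all its alternatives the adjusted p ran from 0.0023 to 0.101.

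Of the 5 genes of helicase activation 3 rose and 0 fell. CDC45, a subunit of the active helicase, had 42.3, 36.3 and 26.9 in controls, 313, 574 and 391 in Boxer lymphomas and 347, 151 and 405 in other-breed lymphomas. The mean rose from 35.2 ± 7.79 (SD, n = 3) to 364 ± 137 (SD, n = 6), with a log2 fold change of 3.25 ± 0.38 and an adjusted p of 2.66e-04. The kinase gene CDC7 rose, from 386, 301 and 378 in controls to 752, 676, 842 (Boxer) and 772, 813, 643 (other-breed) in lymphomas (1.08 ± 0.16, adjusted p = 9.46e-04). Its activating subunit DBF4 did not pass (0.34 ± 0.43, adjusted p = 0.558), with 584, 563 and 475 in controls, 1039.9, 1195 and 526 in Boxer lymphomas and 860.4, 243 and 743 in other-breed lymphomas. DBF4 in other-breed lymphoma 2 was below every control and in 4 of the 6 lymphomas above every control. Of the GINS genes, GINS2 had 57.3, 49.5 and 65.8 in controls and 127, 137, 167 (Boxer) and 94.2, 90.7, 76.4 (other-breed) in lymphomas, all above the controls. Its log2 fold change of 0.95 ± 0.33 passed narrowly (adjusted p = 0.0473), and the call was lost in 15 of 22 alternatives, with adjusted p-values from 0.0119 to 0.227. GINS3 had 434, 341 and 341 in controls and 240.4, 394, 599.7 (Boxer) and 412, 367, 402 (other-breed) in lymphomas, overlapping widely (0.07 ± 0.26, adjusted p = 0.843).

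PCNA, the sliding clamp that tethers polymerases to DNA, rose in lymphoma, as did RFC2 and RFC4 of the RFC complex that loads it. PCNA had 743, 685 and 637 in controls, 4672, 9329.6 and 3681 in Boxer lymphomas and 3519, 1706 and 3256 in other-breed lymphomas. Its lymphoma values spread widely, the highest, in Boxer 2, being 5.47 times the lowest, in other-breed 2. The mean rose from 688 ± 52.7 (SD, n = 3) to 4361 ± 2616 (SD, n = 6), with a log2 fold change of 2.48 ± 0.41 and an adjusted p of 0.00154. Over the alternatives the adjusted p of PCNA ran from 2.62e-08 to 0.0671, the latter with age as a covariate. RFC2 had 269, 353 and 319.5 in controls and 918, 820.0, 941 (Boxer) and 779, 940.0, 752 (other-breed) in lymphomas, where its levels were close together (log2 fold change 1.45 ± 0.16, adjusted p = 1.77e-04). RFC4 had 360.3, 379 and 365 in controls and 786, 870.3, 1029 (Boxer) and 936, 589.9, 773 (other-breed) in lymphomas (1.15 ± 0.19, adjusted p = 0.00148). The other loader subunits did not pass. RFC1, the large subunit specific to the PCNA loader, had 2429.5, 2029 and 1982 in controls and 1806, 2159, 1712 (Boxer) and 1859, 1746, 1487 (other-breed) in lymphomas (-0.26 ± 0.15, adjusted p = 0.187). RFC3 (0.21 ± 0.23, adjusted p = 0.503) and RFC5 (-0.25 ± 0.23, adjusted p = 0.42) also overlapped between the groups.

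Among the polymerases, the genes of catalytic subunits of alpha and epsilon rose, and that of delta did not pass. Polymerase alpha with primase lays down the primers. POLA1, its catalytic subunit, had 557, 580.4 and 601 in controls, 1464, 1380.3 and 1595 in Boxer lymphomas and 1495, 763 and 913 in other-breed lymphomas (log2 fold change 1.08 ± 0.25, adjusted p = 0.00782). PRIM2, the large primase subunit, had 649.7, 571 and 549 in controls and 1018, 1196, 953 (Boxer) and 1079, 883, 764 (other-breed) in lymphomas (0.72 ± 0.17, adjusted p = 0.00852). POLA2, the accessory subunit, had 788, 865 and 733 in controls and 706, 1788, 1458 (Boxer) and 1438, 661, 1027 (other-breed) in lymphomas (0.47 ± 0.32, adjusted p = 0.26). POLE, the catalytic subunit of the leading-strand polymerase epsilon, had 521, 533 and 658 in controls, 1406, 1777 and 2482 in Boxer lymphomas and 2203, 804 and 1429 in other-breed lymphomas (1.48 ± 0.31, adjusted p = 0.00536). Other-breed lymphoma 2 was the lowest lymphoma for both POLA1 and POLE. With age as a covariate, the adjusted p was 0.0676 for POLA1, 0.0568 for PRIM2 and 0.0875 for POLE, the highest over the alternatives of each. The lowest were 2.25e-04 for POLA1, 3.7e-04 for PRIM2 and 3.27e-05 for POLE.

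Polymerase delta copies mainly the lagging strand. POLD1, its catalytic subunit, had 457, 530.0 and 492 in controls and 584, 803, 838 (Boxer) and 729.8, 354, 722 (other-breed) in lymphomas (log2 fold change 0.39 ± 0.26, adjusted p = 0.261). Without other-breed lymphoma 2 POLD1 passed, and over its alternatives the adjusted p ran from 0.0243 to 0.944. POLD2 had 109, 339 and 392 in controls, where control 1 was far below the others, and 274, 600.1, 516 (Boxer) and 506, 463, 394 (other-breed) in lymphomas (0.87 ± 0.40, adjusted p = 0.113). Without control 1 the log2 fold change of POLD2 was 0.29. POLD3 rose, from 240.2, 233 and 157 in controls to 480.0, 580.2, 645 (Boxer) and 534, 415, 392 (other-breed) in lymphomas (1.27 ± 0.23, adjusted p = 0.00238), with no overlap.

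FEN1, which cuts the flaps left between lagging-strand fragments, and LIG1, which joins the fragments, both rose. FEN1 had 95.5, 94.9 and 137 in controls, 479, 538 and 506 in Boxer lymphomas and 334, 176 and 288 in other-breed lymphomas (log2 fold change 1.74 ± 0.36, adjusted p = 0.00501). The Boxer lymphomas were all above the other-breed lymphomas, which were all above the controls. LIG1 was more even across lymphomas, with 649.7, 991 and 877 in controls and 2131, 1636, 1659.7 (Boxer) and 1770.3, 1600.1, 1719 (other-breed) in lymphomas (1.08 ± 0.17, adjusted p = 0.00108). The adjusted p of FEN1 ran from 2.09e-05 to 0.119 over the alternatives, the highest with age as a covariate.

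RPA, a trimer, coats the single strands exposed at the fork. RPA1, the large subunit, rose from 1804, 1396 and 1438 in controls to 3470.5, 4185, 4049 (Boxer) and 3895, 3635, 3203 (other-breed) in lymphomas (log2 fold change 1.28 ± 0.14, adjusted p = 2.04e-04). RPA2 rose from 583, 465 and 445 in controls to 727, 1007, 1404 (Boxer) and 955, 706, 1019 (other-breed) in lymphomas (0.93 ± 0.23, adjusted p = 0.0102). The RPA2 call was lost without control 2, without control 3 and with age as a covariate, its adjusted p running from 0.00104 to 0.208 over the alternatives. RPA3, the small subunit, had 112, 55.3 and 84.3 in controls and 157, 105, 104 (Boxer) and 118, 42.6, 148 (other-breed) in lymphomas (0.37 ± 0.44, adjusted p = 0.535), and other-breed lymphoma 2 was below every control. Thus the 3 subunits of 1 complex had log2 fold changes of 1.28, 0.93 and 0.37, and RPA1 and RPA2 passed the threshold.

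CLSPN, claspin, links the fork to the checkpoint kinase CHEK1. It had 105, 68.5 and 76.9 in controls, 752, 1377 and 860.0 in Boxer lymphomas and 686, 481 and 463 in other-breed lymphomas (log2 fold change 3.11 ± 0.34, adjusted p = 1.66e-04). Its highest lymphoma was Boxer 2, and all lymphomas were far above the controls. TIMELESS, which also rides with the fork, had 575, 542 and 711 in controls and 699, 584, 770.5 (Boxer) and 709.8, 403, 481 (other-breed) in lymphomas (-0.03 ± 0.23, adjusted p = 0.927). Its groups overlapped, other-breed lymphomas 2 and 3 lying below every control.

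The genes of chromatin assembly and maintenance measured here all rose. CHAF1A and CHAF1B encode subunits of CAF-1, which deposits histones behind the fork in contact with PCNA. CHAF1A had 328, 293 and 324 in controls and 819, 1016, 1270.3 (Boxer) and 960.5, 804, 838 (other-breed) in lymphomas (log2 fold change 1.57 ± 0.18, adjusted p = 2.12e-04). CHAF1B had 120.1, 106 and 90.8 in controls, 605, 638 and 249.9 in Boxer lymphomas and 318, 224 and 440.5 in other-breed lymphomas (1.85 ± 0.36, adjusted p = 0.00378). Boxer 3 and other-breed 2 had the lowest CHAF1B of the lymphomas, and its adjusted p ran from 8.15e-06 to 0.155 over the alternatives, the highest with age as a covariate. UHRF1, which binds hemimethylated DNA and recruits the maintenance methyltransferase DNMT1, had 364, 405 and 567 in controls, 3352, 4513 and 3670.2 in Boxer lymphomas and 4194, 2643 and 2757 in other-breed lymphomas. Its mean was 445 ± 107 (SD, n = 3) in controls and 3522 ± 754 (SD, n = 6) in lymphomas (2.98 ± 0.21, adjusted p = 2.35e-05). DNMT1 itself, from the further list of chromatin genes, had a log2 fold change of 0.32 ± 0.23 (adjusted p = 0.297).

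**Figure D3:**
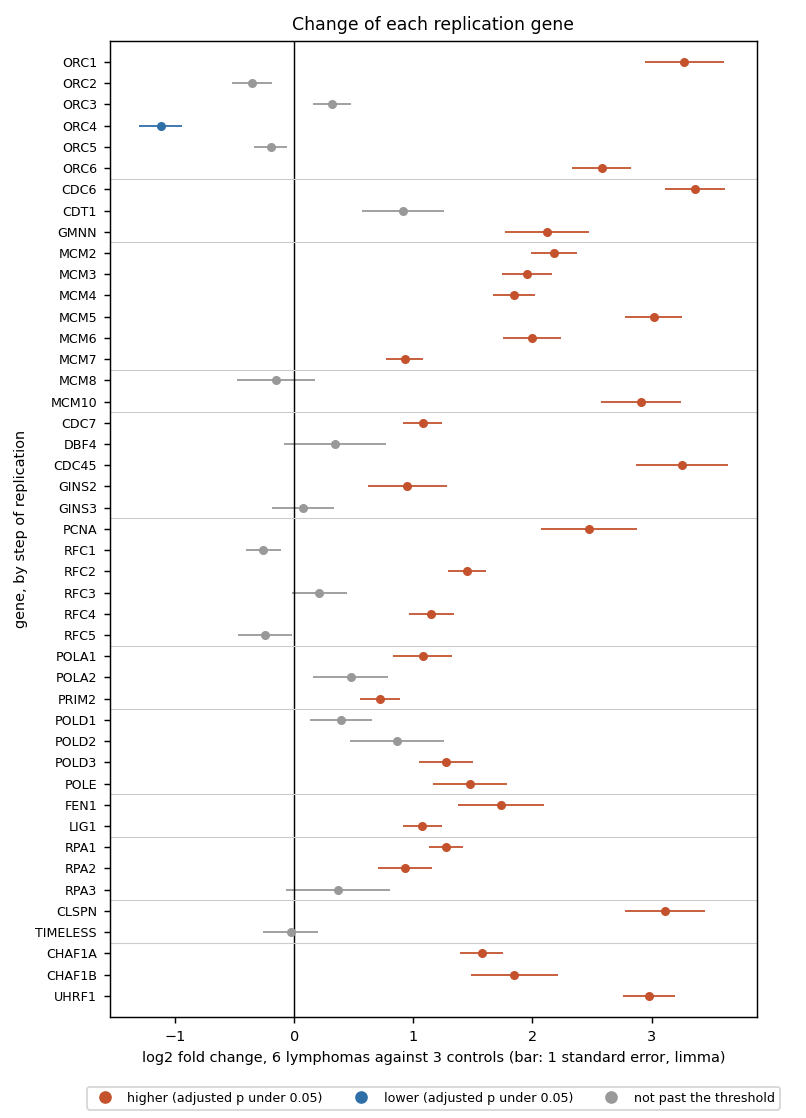
Log2 fold change of each of the 45 replication genes, 6 lymphomas against 3 controls, with bars of 1 standard error from limma. Red points rose, the blue point (ORC4) fell and grey points did not pass an adjusted p of 0.05, and the red points run from 0.72 (PRIM2) to 3.37 (CDC6).

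Each breed group was also set against the same 3 controls, so the 2 comparisons share them. In Boxer lymphoma 30 of the 45 genes rose (66.7%, against 21.5% of 15155 genes tested) and 1 fell (17.9% of genes tested fell). In other-breed lymphoma 27 rose (against 15.5% of 14631 genes tested) and 2 fell, ORC4 and MCM8 (14.2% of genes tested fell). The median log2 fold change was 1.30 in Boxer lymphoma and 1.04 in other-breed lymphoma. Apart from CDT1, whose values are given above, GINS2 and POLA1 passed in Boxer lymphoma and did not in other-breed lymphoma. GINS2 had 1.30 ± 0.33 in Boxer lymphoma (adjusted p = 0.0162) and 0.59 ± 0.34 in other-breed lymphoma (adjusted p = 0.225). Without control 2 the Boxer call of GINS2 was lost (adjusted p = 0.0805, range over its alternatives 6.64e-04 to 0.0805). POLA1 had 1.35 ± 0.16 in Boxer lymphoma (adjusted p = 7.89e-04) and 0.81 ± 0.26 in other-breed lymphoma (adjusted p = 0.0517). In other-breed lymphoma POLA1 passed with the filter at 50, with edgeR, with DESeq2 and without other-breed lymphoma 2 (adjusted p = 0.0486, 0.0476, 0.0162 and 0.0206), and over all its alternatives the adjusted p ran from 0.0162 to 0.147.

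The direct comparison of the 3 Boxer with the 3 other-breed lymphomas, which uses no control, called no replication gene. limma called 0 genes higher and 0 lower among 15112 tested (0% and 0%). At an unadjusted p under 0.05, 5 of the 45 genes were higher in Boxer lymphoma and 0 lower, against 2.55% and 2.43% of all genes tested. On the same genes edgeR called 0 and DESeq2 0 of the 45, with 4 and 5 higher at an unadjusted p under 0.05. Over all genes edgeR called 0, and DESeq2 called 44 higher and 58 lower. The fold change was above 0 in 40 of the 45 genes, against 52.0% of all genes tested, and their median was 0.29. In 10 of the 45 genes every Boxer lymphoma was above every other-breed lymphoma, against 4.99% of all genes tested, and in 0 every Boxer lymphoma was below (5.7% of all genes). The 45 genes were measured in the same lymphoma libraries and can move together, so these counts are not separate evidence of a breed difference. The median level of the 45 genes relative to the control mean was 1.32 in other-breed lymphoma 1, above Boxer lymphomas 1 and 2 (1.18 and 1.29).

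The 3 replication genes with the smallest p in that comparison were FEN1, MCM8 and CLSPN. FEN1 was 479, 538 and 506 in Boxer and 334, 176 and 288 in other-breed lymphomas, a log2 difference of 0.98 ± 0.31 (unadjusted p = 0.0152, adjusted p = 0.881). MCM8 was 1153, 1601 and 729 against 569.7, 619 and 561 (0.92 ± 0.31, unadjusted p = 0.0197, adjusted p = 0.881). CLSPN was 752, 1377 and 860.0 against 686, 481 and 463 (0.85 ± 0.30, unadjusted p = 0.0261, adjusted p = 0.881). In each of the 3 genes the Boxer lymphomas lay above the other-breed lymphomas without overlap, and none passed the adjusted threshold. PCNA had the largest log2 difference of the 45, 1.01 ± 0.42 (adjusted p = 0.881).

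**Figure D4:**
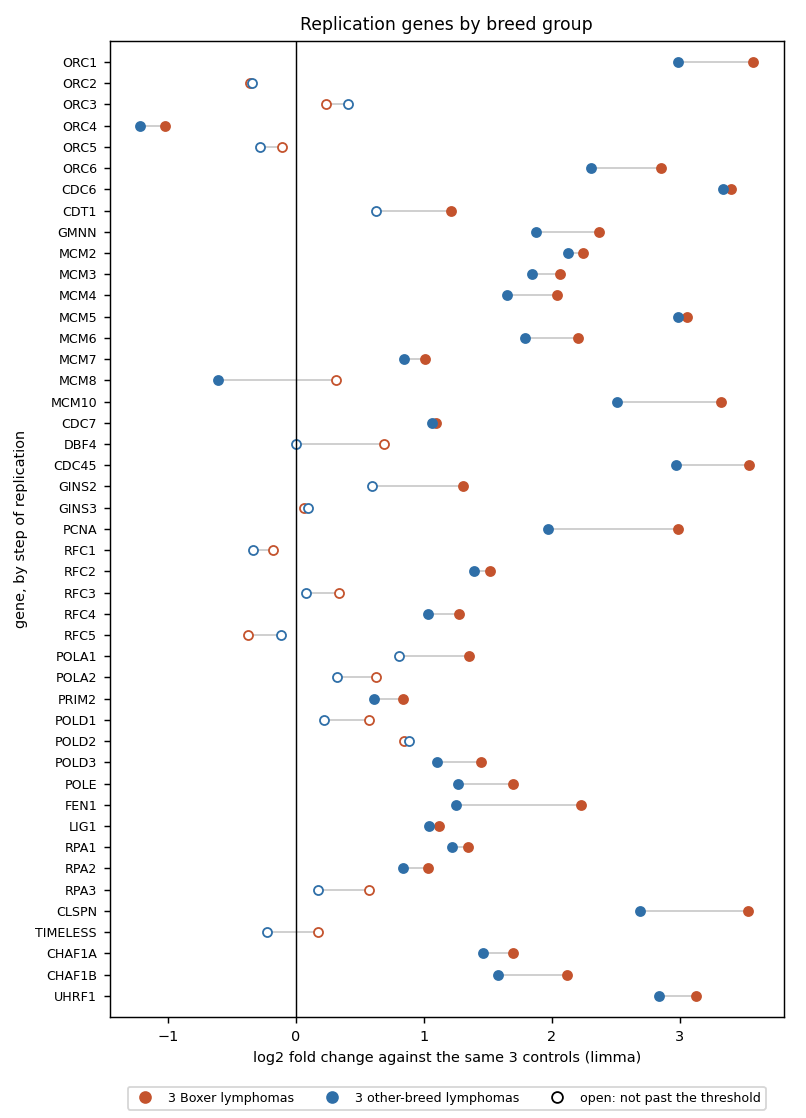
Log2 fold change against the same 3 controls for the 3 Boxer lymphomas (red) and the 3 other-breed lymphomas (blue), with a grey line joining the points of a gene and open points for values that did not pass the threshold. The Boxer point lies to the right of the other-breed point in 40 of the 45 genes, and the longest lines are those of PCNA, FEN1 and MCM8.

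The median SD of the 45 genes on the log2 scale was 0.20 among controls and 0.37 among lymphomas, against 0.25 and 0.56 for all 15977 genes tested. The sets were not matched for level, and counting error weighs more on low values. Relative to the control mean, the median level of the 45 genes on the log2 scale was 1.18, 1.29 and 1.46 in Boxer lymphomas 1, 2 and 3 and 1.32, 0.92 and 1.04 in other-breed lymphomas 1, 2 and 3. The controls lay between -0.01 and 0.04. Among the 6 lymphomas, other-breed 2 had the lowest level in 26 of the 45 genes (57.8%, against 19.6% of all genes tested) and other-breed 3 in 14. Boxer 2 had the highest level in 19 and Boxer 3 in 18 (42.2% and 40.0%, against 16.6% and 14.3% of all genes). The 15 mitosis genes tested, described next, had medians of 2.77, 3.37 and 3.33 in Boxer lymphomas 1, 2 and 3 and of 3.04, 2.40 and 2.65 in other-breed lymphomas 1, 2 and 3. Boxer 2 and 3 were thus the highest and other-breed 2 the lowest in that list.

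Other genes of the cell cycle were counted from further lists, beside 19.4% of all genes tested that rose and 15.7% that fell. Of 15 mitosis genes tested all 15 rose, with a median log2 fold change of 2.97, and CCNB2 of the same list was at 0 in all 9 libraries. TOP2A, the topoisomerase that untangles replicated chromosomes, had 684, 645 and 708 in controls and 9609, 19830.0, 17342 (Boxer) and 12309, 7981, 9780.3 (other-breed) in lymphomas (4.16 ± 0.28, adjusted p = 1.96e-05). MKI67, which encodes the proliferation antigen Ki-67, had 506, 594 and 742 in controls and 3917, 5856, 5102 (Boxer) and 5012, 1557, 3811 (other-breed) in lymphomas (2.68 ± 0.36, adjusted p = 5.71e-04). The spindle genes ASPM (2.97 ± 0.21, adjusted p = 2.25e-05) and NUF2 (3.18 ± 0.29, adjusted p = 6.67e-05) rose as well. Of 9 cyclin and kinase genes of S phase entry and their regulators 5 rose and 1 fell, with a median of 1.10. Those that rose were the cyclins CCNA2 and CCNE2, the kinase CDK2, and FBXO5 and SKP2, which encode regulators of protein degradation. Cyclin A2 (CCNA2) had 3.18 ± 0.31 (adjusted p = 8.66e-05), and the inhibitor gene CDKN1B, encoding p27, fell (-2.48 ± 0.39, adjusted p = 0.00133). The CDKN1B call was lost with age as a covariate, its adjusted p running from 8.94e-08 to 0.0628 over the alternatives.

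Among 10 genes of deoxynucleotide supply 5 rose and 1 fell (median 1.26). DCK, which salvages deoxycytidine, rose with the smallest p (3.13 ± 0.27, adjusted p = 5.39e-05), followed by the thymidine genes TK1 (1.91 ± 0.25, adjusted p = 4.43e-04) and TYMS (1.39 ± 0.19, adjusted p = 5.58e-04). SAMHD1, which breaks down deoxynucleotides, fell (-2.76 ± 0.50, adjusted p = 0.0026), from 2098, 1974 and 2011 in controls to 562, 401, 337 (Boxer) and 111, 149.8, 564 (other-breed) in lymphomas. A list of 17 genes held E2F factors and their DP partners, pocket proteins, LIN genes and MYBL2. Of these 7 rose and 1 fell (median 0.51). Those that rose were E2F2, E2F3, E2F7, E2F8, TFDP1, LIN9 and MYBL2, the last 2 being neither E2F nor pocket protein genes. E2F7 (3.14 ± 0.27, adjusted p = 4.86e-05) and E2F3 (3.12 ± 0.27, adjusted p = 4.94e-05) rose, and RBL2, encoding the pocket protein p130 of resting cells, fell (-1.12 ± 0.18, adjusted p = 0.00128).

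Of 9 replication checkpoint genes 4 rose and 1 fell (median 0.70). CHEK1, the kinase downstream of claspin, rose (2.38 ± 0.31, adjusted p = 4.59e-04), and ATR, the kinase above it, had 0.08 ± 0.21 (adjusted p = 0.797). Of 21 further replication factors 9 rose and 2 fell (median 0.49). TICRR, which helps to load CDC45, rose (2.45 ± 0.27, adjusted p = 1.93e-04), as did the helicase gene RECQL4 (2.67 ± 0.23, adjusted p = 4.97e-05) and DNA2 (2.93 ± 0.40, adjusted p = 5.46e-04). PRIMPOL, a primase that restarts stalled forks, fell (-1.65 ± 0.28, adjusted p = 0.00191, range over the alternatives 1.09e-06 to 0.0719, lost with age as a covariate). POLE3, an accessory subunit of polymerase epsilon, fell (-0.68 ± 0.22, adjusted p = 0.0347), a call lost in 7 alternatives that included leaving out each control (adjusted p 0.00499 to 0.178). Of 7 histone chaperone and DNA methylation genes 5 rose and 0 fell (median 0.61), among them the histone chaperone genes NASP (1.75 ± 0.19, adjusted p = 1.97e-04) and ASF1A (1.39 ± 0.21, adjusted p = 9.61e-04).

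Markers of other cell types also differed between the groups. The summed level of 13 monocyte and macrophage markers was 134 to 205 in controls and 917 to 21319 in lymphomas, and 10 of 11 tested rose. Of these markers FCER1G was at 0 in every control. In Boxer lymphomas 1, 2 and 3 that sum was 12795, 6120.5 and 12082, beside median replication levels of 1.18, 1.29 and 1.46. In other-breed lymphomas 1, 2 and 3 it was 917, 3499 and 21319, beside 1.32, 0.92 and 1.04. Without LYZ, its highest marker in the controls, the sum was 49.1 to 71.8 in controls, 7059, 3405 and 4179 in Boxer lymphomas and 301, 1241 and 4389 in other-breed lymphomas. The fibroblast sum (11 genes) was 2364 to 2830 in controls and 354 to 12649 in lymphomas, with LUM and MMP2 at 0 in every control. THY1 made up 97.5% to 99.3% of the control sum, and without it the sum was 20.6 to 60.1 in controls and 147 to 11706 in lymphomas, lowest in other-breed lymphoma 1. The endothelial sum (8 genes) was 312 to 696 in controls and 94.2 to 6639 in lymphomas. KDR made up at least 83.6% of each control sum. Without it the controls had 69.6, 58.6 and 50.01, the Boxer lymphomas 1386, 2224 and 3287, and the other-breed lymphomas 44.7, 72.6 and 5483. Without other-breed lymphomas 1 and 2, 31 of the 45 genes rose and 1 fell, against 22.8% and 17.3% of the 15597 genes then tested. The neutrophil sum (7 genes) was 17.3 to 34.3 in controls and 117 to 488 in lymphomas, and the dendritic cell sum (7 genes) 266 to 482 and 419 to 1469. The erythroid sum (6 genes) was 192 to 285 in controls and 344 to 1383 in lymphomas, and without ALAS2 46.4 to 95.8 and 13.4 to 1060.3. Of the full sums given above, those of T cell, fibroblast, endothelial and dendritic cell markers overlapped between controls and lymphomas. So did the endothelial sum without KDR and the erythroid sum without ALAS2. Overlap was also present for B cell (1490.2 to 1695 and 484 to 6303), CD8 T and NK cell (1058 to 1493 and 228 to 6739) and plasma cell markers (2942 to 3835 and 1359 to 5767). Single genes made up most of the highest B cell and CD8 T and NK cell sums. MS4A1 was 5123 in other-breed lymphoma 1 and KLRB1 6050 in Boxer lymphoma 2. Of 9 B cell markers tested 0 rose and 1 fell. Of 8 CD8 T and NK cell markers 1 rose and 1 fell, and of 6 plasma cell markers 1 rose and 2 fell. Over all genes tested 19.4% rose and 15.7% fell. The part of these cells in the replication gene values was not tested.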

How the data were processed

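Oligo(dT)-selected RNA was sequenced, per the labels' protocols. The submitters' processing notes name TopHat2, HTSeq, DESeq2 and the dog genome build CanFam3.1. Versions and strandedness are not given in the sources used here, and reads of overlapping genes may not be separable. The deposited value of a gene is a signal: its read count in a library, which the authors divided by a factor common to all genes of that library. Within 0.01 reads, 100% of values were whole multiples of 1 read, so whole reads could be recovered. The files hold no coordinates or sequences, and none are given.

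The filter kept genes that reached 10 in 3 or more of the compared libraries, which included all 45 replication genes. They were tested with limma 3.58.1 in R 4.3.3 on log2(value + 1), using empirical Bayes moderation with a trend of variance on mean, on the compared groups only. This scale understates changes of low genes. P-values were two-sided and Benjamini-Hochberg adjusted over all genes tested, with a threshold of 0.05. The procedure was tested on simulated data with the same spread in both groups. In the real data the median log2 SD of all genes tested was 0.25 in controls and 0.56 in lymphomas, so the simulation did not test unequal spread. Over all genes limma called 3092 higher and 2504 lower in lymphoma. On recovered reads edgeR 4.0.16 called 3100 higher and 2290 lower, and DESeq2 1.42.0, a further alternative, called 4074 higher and 2676 lower. The shares of all genes given beside the lists are those of limma. Other alternatives were other scalings, filters and pseudocounts (0.5 and 5), the replicate number as a block, sex or age as a covariate, female dogs only, each library left out in turn, and other-breed lymphomas 1 and 2 left out. Within each group, no libraries were the same within sampling noise, which does not show that they came from separate dogs.

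The members and gene lists were chosen with earlier results of these data known. Any member could be named; of other lists, up to 3 genes per direction with the smallest p past the threshold, besides MKI67 and TOP2A. ATR, DNMT1, CCNB2, GINS4 and all genes that rose in the S phase and E2F lists were named after their values were seen. Marker sums without their highest control marker were added after seeing the data.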

Additional observations from a re-analysis of the deposited data

Results flagged for a closer look

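For each of the 45 replication genes, the highest and the lowest of the 6 lymphomas were set against the others on the log2 scale, and 4 genes had a library whose gap to its neighbour exceeded Dixon's 95% critical value as a share of the whole range. Chance passes this in about 1 of 20 groups. ORC1 was lowest in other-breed lymphoma 2 (264 against 517 to 668 in the other lymphomas), a gap of 0.723 of the range. RPA3 was lowest in the same library (42.6 against 104 to 157), a gap of 0.683. GMNN was highest in Boxer lymphoma 2 (1381 against 473 to 652), a gap of 0.701. LIG1 was highest in Boxer lymphoma 1 (2131 against 1600 to 1770), a gap of 0.647.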

How the results depend on the processing

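The 22 alternatives for lymphoma against control gave 27 to 31 genes that rose, apart from 21 with age as a covariate, and 1 that fell, and no called gene changed direction. Leaving out 1 library gave 27 to 31 genes that rose in all lymphomas, 28 to 32 in Boxer lymphoma and 19 to 30 in other-breed lymphoma, the lowest without control 2. The count that fell in other-breed lymphoma ran from 1 to 2 when 1 library was left out and was 1 with the replicate block. With that block 28 genes rose and 1 fell in all lymphomas, 30 and 1 in Boxer lymphoma, and 25 rose in other-breed lymphoma, where MCM8 lost its call (adjusted p = 0.0715). Between the breed groups every alternative run called 0 replication genes. Deviations from the group mean correlated at -0.136 to 0.104 between same-numbered libraries and at -0.123 to 0.151 between differently numbered ones. With so few libraries per group, this cannot show whether same-numbered libraries shared a processing step. With age as a covariate the log2 fold change turned to -0.20 for DBF4, -0.22 for RPA3 and 0.13 for TIMELESS. Without other-breed lymphomas 1 and 2 it turned to 0.067 for MCM8 and 0.043 for TIMELESS. Leaving out 1 library gave -0.11 to 0.086 for TIMELESS and -0.051 to 0.21 for GINS3. None of these genes passed the threshold, and the cause was not tested. GINS2 and RPA2 were the called genes lost under an alternative other than age. The lowest level among the 45 genes was 26.9, for CDC45 in control 3, where counting error weighs most.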

Other observations

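Some partners differed in balance between controls and lymphomas; these pairs were chosen after their values were seen and carry no test. The log2 level of CDT1 less that of its inhibitor GMNN was 1.45, 1.07 and 1.51 in the controls, 0.37, -0.42 and 0.62 in the Boxer lymphomas and 0.47, -0.57 and 0.37 in the other-breed lymphomas. The lymphomas were all below the controls. The log2 level of ORC1 less that of ORC4, subunits of the same complex, was -6.27 to -4.80 in controls and -1.89 to -0.59 in lymphomas. The lack of overlap follows from ORC1 lying above and ORC4 below every control in every lymphoma. The log2 level of CDC7 less that of its partner DBF4 was -0.90 to -0.33 in controls and -0.82 to 1.74 in lymphomas, where the groups overlapped.

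Translesion polymerases, which copy damaged templates in place of the replicative enzymes, were counted from a further list. Of 7 genes 1 rose and 1 fell in lymphoma, with a median log2 fold change of 0.06. Over all genes tested 19.4% rose and 15.7% fell, with a median of 0.05, so the list was near the background. POLH had 0.56 ± 0.16 (SE, limma adjusted p = 0.0219, range over the alternatives 0.00245 to 0.155) and POLK -0.55 ± 0.16 (adjusted p = 0.0247, range 0.00482 to 0.143). The POLH call was lost in 5 of 22 alternatives and the POLK call in 6.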
